A study of Mus musculus with 12 samples.

Results

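Legumain (Lgmn) and 6 lysosomal cathepsins, Ctsb, Ctsd, Ctsh, Ctsl, Ctss and Ctsz, were followed in mouse ileum as 7 of the 12393 genes named on the arrays. They were read by 12 of the 22626 tested probe sets, the sets of short oligonucleotides that each give 1 level for a transcript. Every probe set annotated to exactly 1 of the 7 symbols was taken. Lgmn was chosen from measured values, since it had the third smallest p of all tested probe sets between POR-null and wild-type arrays on the control diet. The 6 cathepsins were added as its family in the lysosome. The comparison of genotypes on the control diet is therefore given as a description without a test, as is every quercetin difference of Lgmn, because those differences use the same arrays.

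The study fed quercetin, a plant flavonol, to male C57BL/6 mice with and without cytochrome P450 reductase, the enzyme that passes electrons from NADPH to microsomal P450 enzymes and is encoded by Por. The 4 groups were POR-null mice on quercetin, POR-null mice on the control diet, wild-type mice on quercetin and wild-type mice on the control diet. All mice were 6 to 8 weeks old and had been adapted for 14 days to the same soya-free powdered diet, RM3 (E), before the groups diverged for 24 h. The quercetin groups received 6.2 g of quercetin per kg of this diet, given as 7 mg per mouse. The scraped epithelial layer of the ileum gave the RNA, each array held the pooled RNA of 3 mice, and each group had 3 arrays from separate pools. Where in the body the reductase gene was disrupted is not stated in the labels. Por had no probe set of its own among those tested, so the genotype was taken from the labels alone.

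Legumain is a cysteine protease that cuts after asparagine in the acid interior of lysosomes and late endosomes. In mice it cuts the single-chain forms of cathepsins B, H and L into a heavy and a light chain, and in antigen-presenting cells it helps process antigen for MHC class II molecules. Ctsb, Ctsh, Ctsl, Ctss and Ctsz are cysteine proteases of the papain family, and Ctsd is an aspartic protease. All are made as inactive precursors, and in the gut both by enterocytes and by cells of the lamina propria. Cystatins inhibit the papain-family proteases, and some of them also legumain, but not the aspartic protease Ctsd.

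Promoters of Lgmn and Ctsd are shown because the transcription factor TFEB, a known activator of lysosomal genes, binds an E-box (CACGTG) with set flanks (TCACGTGA or GTCACGTG). RefSeq on GRCm38.p6 gives Lgmn a pair of starts, and the 250 bases before each start are printed 5′ to 3′ on the gene's strand. Capitals mark every match, on either strand, to those letters, to a GC box (GGGCGG) or to a CCAAT box (CCAAT).
Lgmn, upstream start, chr12:102439729-102439978, minus strand: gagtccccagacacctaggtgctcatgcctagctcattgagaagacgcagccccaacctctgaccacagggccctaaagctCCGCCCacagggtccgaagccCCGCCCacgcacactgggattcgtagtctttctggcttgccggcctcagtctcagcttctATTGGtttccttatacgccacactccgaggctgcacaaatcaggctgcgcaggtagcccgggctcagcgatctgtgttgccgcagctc
Lgmn, downstream start, chr12:102439093-102439342, minus strand: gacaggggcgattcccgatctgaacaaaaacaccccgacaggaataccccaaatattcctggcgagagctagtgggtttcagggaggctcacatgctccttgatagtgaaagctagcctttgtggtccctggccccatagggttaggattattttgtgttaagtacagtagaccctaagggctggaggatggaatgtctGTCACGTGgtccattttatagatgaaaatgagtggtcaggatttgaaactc
Ctsd, chr7:142387828-142388077, minus strand: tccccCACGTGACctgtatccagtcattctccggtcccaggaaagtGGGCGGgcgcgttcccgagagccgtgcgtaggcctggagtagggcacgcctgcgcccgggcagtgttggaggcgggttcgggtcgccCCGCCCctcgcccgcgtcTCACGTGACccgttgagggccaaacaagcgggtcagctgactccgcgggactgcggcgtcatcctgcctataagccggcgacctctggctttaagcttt

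The window before the upstream start of Lgmn held GC boxes 169 and 148 bases before the start and a CCAAT box 88 bases before it, but no E-box. The window before the downstream start held GTCACGTG, 51 bases before the start. The single Lgmn probe set was not assigned to either start. Ctsd had E-boxes 245 and 98 bases before its start, the nearer of them inside a full TCACGTGA, and GC boxes 204 and 117 bases before it. Ctsl had an E-box 236 bases before the start used for it. That window, chr13:64370521-64370770, lies within the annotated Ctsl gene (chr13:64361890-64370772), so it is not the sequence upstream of the whole gene. Ctss had a GC box 55 bases before its start, and Ctsz had overlapping GC boxes 32 and 27 bases before its start and a CCAAT box 234 bases before it. GAGGAAGT, the core bound by the macrophage factor PU.1, was in none of these windows. Of 32851 promoters of this length, 6.02% held CACGTG, 0.785% TCACGTGA, 1.85% GTCACGTG, 32.7% GGGCGG, 33.8% CCAAT and 2.44% GAGGAAGT, with both strands searched and the short E-box counted also within the longer forms. The GC content was 60.4% and 48.0% before the upstream and downstream starts of Lgmn and 67.2% for Ctsd, against a median of 52.4% over all promoters. These matches are letters in a window and show no binding.

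The arrays matched their label as small intestinal epithelium. Vil1, the villin of the enterocyte brush border, had a level of 12.11 to 12.32 over the 12 arrays, Fabp6, the ileal bile acid binding protein, 12.05 to 12.76, and the goblet cell peptide Tff3 13.09 to 13.34, where array medians were 5.91 to 5.96 (all on the log2 scale, the scale of every level and difference below). Wild-type control replicate 2 stood apart on the first principal component, at -25.6 with the other 11 arrays between -10.8 and 10.6. Genotype differences on the control diet and quercetin differences in wild type use that array, and the main ones are also given without it, for Lgmn and the cathepsins beside each value and for the lysosomal lists at their end.

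Lgmn was higher on all 6 POR-null arrays, 8.00 to 8.52, than on all 6 wild-type arrays, 7.41 to 7.85. Its level was 8.37, 8.00 and 8.13 on the POR-null quercetin arrays and 8.04, 8.46 and 8.52 on the POR-null control arrays, against 7.68, 7.85 and 7.75 on the wild-type quercetin arrays and 7.62, 7.67 and 7.41 on the wild-type control arrays. In order of their means the groups ran POR-null control (8.34 ± 0.26), POR-null quercetin (8.17 ± 0.19), wild-type quercetin (7.76 ± 0.09) and wild-type control (7.57 ± 0.14; SD, n = 3 each). The POR-null groups overlapped each other, while the POR-null quercetin and wild-type quercetin groups did not. The wild-type groups did not overlap either, though only 7.68 and 7.67 separated their nearest arrays. The split of all 6 POR-null from all 6 wild-type arrays includes the control-diet arrays that chose the gene. The share of all probe sets that split the arrays this way was not counted.

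The quercetin diet gave a comparison of genotypes on arrays outside the comparison that chose Lgmn. The estimate of the spread is shared with the control-diet arrays, and earlier results of these data were known when the genes were chosen. On the quercetin diet Lgmn was 0.41 ± 0.13 higher in POR-null than in wild type (SE), a 1.33-fold difference with a 95% interval of 1.10 to 1.60. The unadjusted p was 0.00637, the 263rd smallest of 22626, and limma's adjusted p over all probe sets was 0.548, so the difference did not pass the threshold of 0.05. No probe set passed it on this diet (0% called), 1585 had an unadjusted p under 0.05 (7.01%), and 12.3% had groups that did not overlap, as Lgmn did. An exact two-sided permutation test on Lgmn alone gave p = 0.1, the smallest that 3 arrays against 3 allow. Without POR-null quercetin replicate 1, which had the highest Lgmn level of its group, the difference was 0.30. In bulk RNA a change in the number of cells of a type and a change in RNA per cell cannot be told apart.

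On the control diet, the comparison that chose the gene, Lgmn differed by 0.77 ± 0.13 (1.71-fold), and by 0.82 without wild-type control replicate 2. Quercetin minus control was 0.19 ± 0.13 in wild type (0.24 without wild-type control replicate 2) and -0.17 ± 0.13 in POR-null. The quercetin difference in POR-null minus that in wild type was -0.37 ± 0.18.

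**Figure D1:**
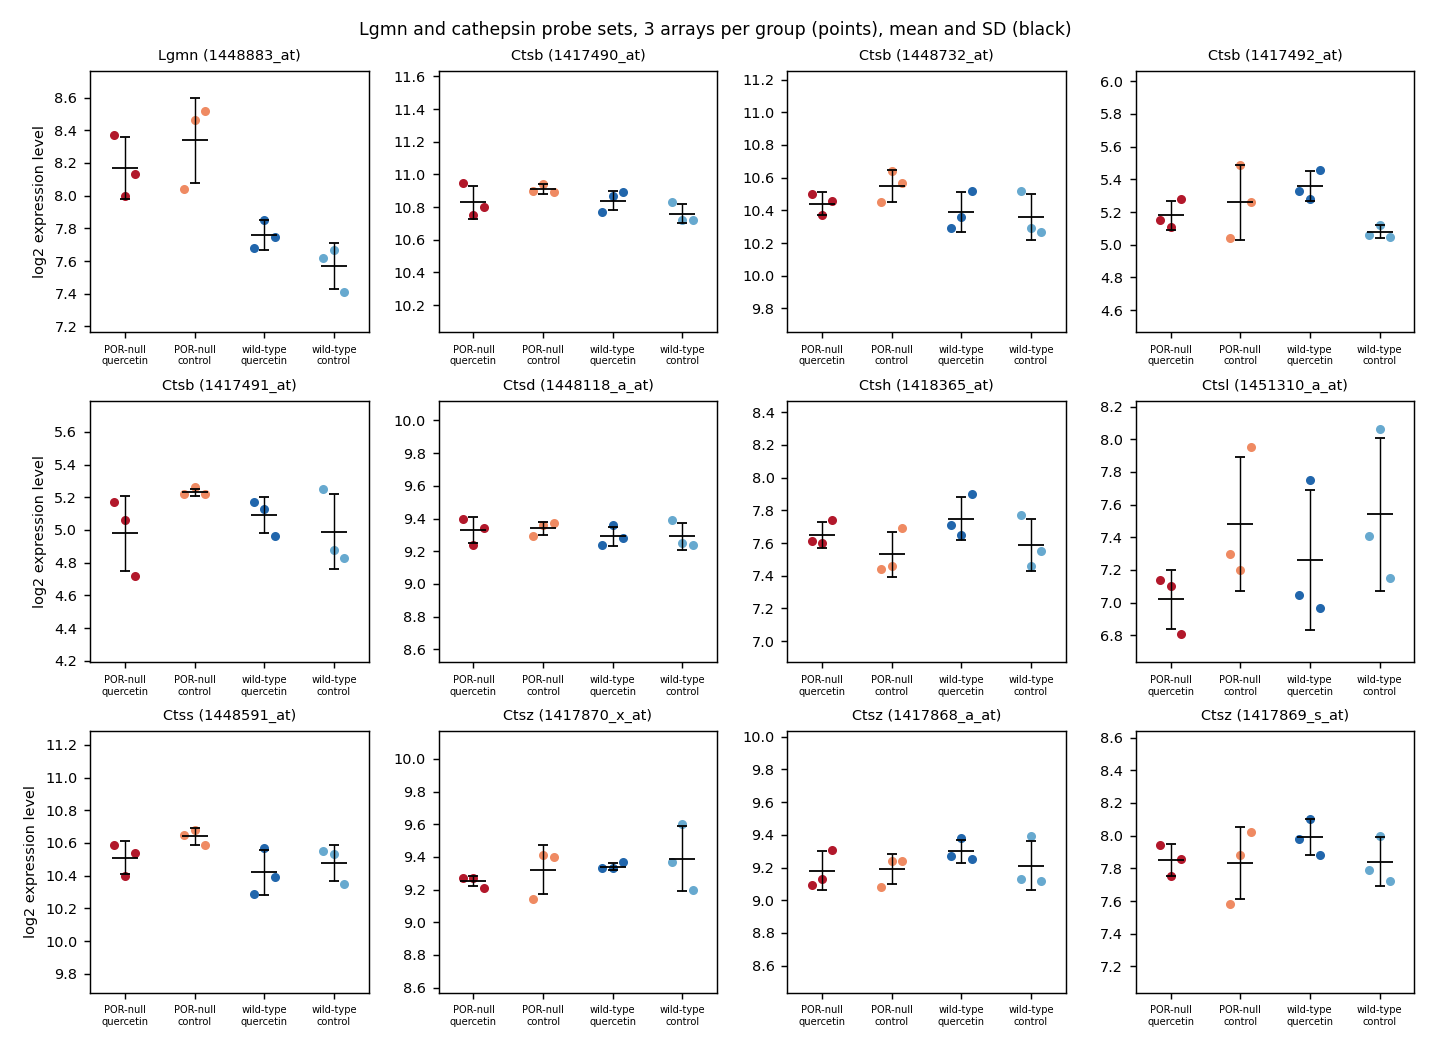
Level of each of the 12 probe sets of Lgmn and the cathepsins on the log2 scale, with 1 panel per probe set and axes of equal span. Points are the 3 arrays of a group from replicate 1 on the left, black lines the mean and SD. Lgmn separates the POR-null arrays (8.00 to 8.52) from the wild-type arrays (7.41 to 7.85), Ctsl spreads widely within groups, and Ctsd hardly varies.

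The cathepsins that legumain cuts, Ctsb, Ctsh and Ctsl, gave genotype differences of -0.24 to 0.05 on the quercetin diet over their 6 probe sets, against 0.41 for Lgmn. Ctsb, a cysteine endopeptidase and exopeptidase, was bright on a pair of its 4 probe sets. On 1417490_at it stood at 10.95, 10.75 and 10.80 in POR-null quercetin arrays and 10.90, 10.94 and 10.89 in POR-null control arrays, against 10.77, 10.87 and 10.89 in wild-type quercetin arrays and 10.83, 10.72 and 10.72 in wild-type control arrays. On quercetin the genotypes overlapped and differed by -0.01 ± 0.07, with a 95% interval of -0.16 to 0.14. All 3 POR-null control arrays were above the 3 wild-type control arrays, by 0.15 ± 0.07, or by 0.13 without wild-type control replicate 2. The second bright probe set, 1448732_at, differed between genotypes by 0.05 ± 0.09 on quercetin and by 0.19 ± 0.09 on the control diet (0.16 without wild-type control replicate 2), and ran from 10.27 to 10.64 over the 12 arrays.

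The other Ctsb probe sets, 1417492_at (5.04 to 5.49) and 1417491_at (4.72 to 5.26), were below the array median on all 12 arrays. POR-null minus wild type was -0.18 ± 0.10 and -0.10 ± 0.12 on quercetin, and 0.19 ± 0.10 and 0.25 ± 0.12 on the control diet (0.21 and 0.19 without wild-type control replicate 2). All 4 Ctsb probe sets were thus higher in POR-null on the control diet. On quercetin 1 was higher and 3 were lower, within intervals that all held 0, and differences between probe sets were not tested.

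Ctsh, an aminopeptidase, had levels of 7.61, 7.60 and 7.74 on the POR-null quercetin arrays and 7.44, 7.46 and 7.69 on the POR-null control arrays, against 7.71, 7.65 and 7.90 on the wild-type quercetin arrays and 7.77, 7.46 and 7.55 on the wild-type control arrays. The groups overlapped on both diets, with a genotype difference of -0.10 ± 0.10 on quercetin (interval -0.32 to 0.11) and -0.06 ± 0.10 on the control diet (-0.13 without wild-type control replicate 2).

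Ctsl, an endopeptidase, varied more than any other probe set of the 12, with a range of 1.25 and a pooled within-group SD of 0.39. Its levels were 7.14, 7.10 and 6.81 on the POR-null quercetin arrays and 7.30, 7.20 and 7.95 on the POR-null control arrays, against 7.05, 7.75 and 6.97 on the wild-type quercetin arrays and 7.41, 8.06 and 7.15 on the wild-type control arrays. A high array stood out in every group but POR-null quercetin. The genotype difference was -0.24 ± 0.25 on quercetin, with an interval of -0.78 to 0.30, the widest of the 12. On the control diet it was -0.06 ± 0.25, and 0.20 without wild-type control replicate 2, the array with the highest level.

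Ctss, the protease that removes the last part of the invariant chain in antigen-presenting cells, was among the bright members. It had levels of 10.59, 10.40 and 10.54 on the POR-null quercetin arrays and 10.65, 10.68 and 10.59 on the POR-null control arrays, against 10.29, 10.57 and 10.39 on the wild-type quercetin arrays and 10.55, 10.53 and 10.35 on the wild-type control arrays. The genotypes overlapped on quercetin, where they differed by 0.09 ± 0.09 (interval -0.09 to 0.28). Every POR-null control array was above every wild-type control array, by 0.16 ± 0.09, or by 0.19 without wild-type control replicate 2.

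Ctsd, the aspartic protease, was the steadiest of the 12 probe sets, with a range of 0.16 and a within-group SD of 0.07. Its levels were 9.40, 9.24 and 9.34 on the POR-null quercetin arrays and 9.29, 9.36 and 9.37 on the POR-null control arrays, against 9.24, 9.36 and 9.28 on the wild-type quercetin arrays and 9.39, 9.25 and 9.24 on the wild-type control arrays. POR-null minus wild type was 0.03 ± 0.07 on quercetin, with an interval of -0.12 to 0.19. On the control diet it was 0.05 ± 0.07 (0.02 without wild-type control replicate 2).

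Ctsz, a carboxypeptidase, was lower in POR-null on quercetin on each of its 3 probe sets, by values that did not pass the test. Its brightest probe set, 1417870_x_at, stood at 9.27, 9.27 and 9.21 on the POR-null quercetin arrays and 9.14, 9.41 and 9.40 on the POR-null control arrays, against 9.33, 9.33 and 9.37 on the wild-type quercetin arrays and 9.37, 9.60 and 9.20 on the wild-type control arrays. The quercetin groups did not overlap, with a difference of -0.09 ± 0.10. The other probe sets gave -0.12 ± 0.09 (1417868_a_at) and -0.14 ± 0.11 (1417869_s_at) with overlapping groups, and the 3 differences on the control diet were -0.07 to -0.01, which turned to 0.03, 0.06 and 0.07 without wild-type control replicate 2. By the naming of these arrays, suffixes s and x mark probe sets with probes that may bind other transcripts.

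Over the 11 cathepsin probe sets, 3 were higher and 8 lower in POR-null on quercetin, with a median of -0.10 against 0.01 over all probe sets. Several of the 11 read the same gene, Ctsb or Ctsz, so counts and medians here and below are not of separate genes. Differences ran from -0.24 to 0.09, and 0 of 11 had an unadjusted p under 0.05, against 7.01% of all probe sets. The smallest adjusted p was 0.747 (limma). On the control diet, 2 of the 11 cathepsin probe sets had groups that did not overlap, both higher in POR-null (Ctsb 1417490_at and Ctss). Such groups were found for 13.9% of all probe sets. With Lgmn, which was chosen from this comparison, the count was 3 of 12. That count was also 3 without wild-type control replicate 2, but 6 without wild-type control replicate 1 and 5 without POR-null control replicate 1. Smaller groups overlap less readily. The share of all probe sets with an array left out was not counted, so the higher counts cannot be set against 13.9%.

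**Figure D2:**
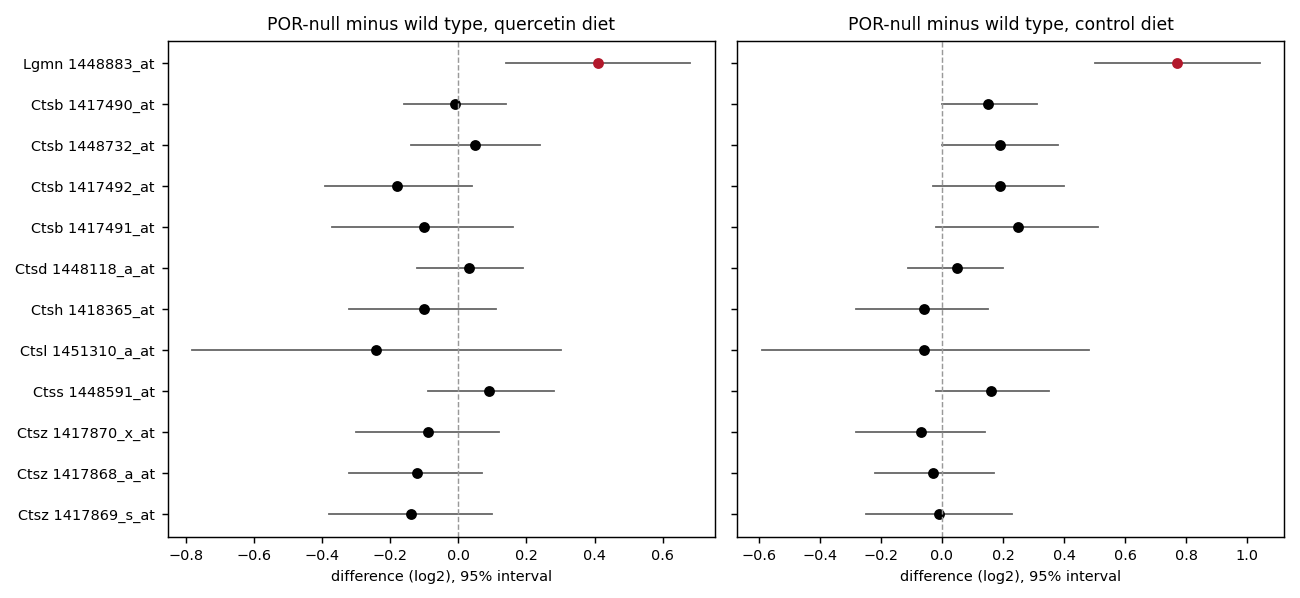
POR-null minus wild type on the log2 scale for the 12 probe sets, on the quercetin diet (left) and the control diet (right). Points are limma estimates and lines 95% intervals. On quercetin the interval of Lgmn, 0.14 to 0.68, lies above 0 and the 11 cathepsin intervals hold 0. Lgmn was chosen from the contrast on the right.

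Quercetin gave no cathepsin difference that passed the test in either genotype. In wild type, 7 of 11 cathepsin probe sets were higher on quercetin and 3 lower, with a median of 0.09 against -0.02 over all probe sets. Only the dim Ctsb probe set 1417492_at had an unadjusted p under 0.05, with 5.33, 5.28 and 5.46 on quercetin arrays and 5.06, 5.12 and 5.05 on control arrays. It was 0.28 ± 0.10 higher on quercetin, with groups that did not overlap (limma adjusted p = 0.348), while the bright Ctsb probe sets differed by 0.09 ± 0.07 and 0.03 ± 0.09. That 1 of 11 stands against 10.9% of all probe sets with an unadjusted p under 0.05, 13.4% with groups that did not overlap and 0.00442% past the adjusted threshold. The count was 0 without wild-type quercetin replicate 3, 2 without wild-type control replicate 1 or wild-type quercetin replicate 2, and 0 where each gene was taken as the mean of its probe sets. Shares of all probe sets in these settings are not given. Ctsl differed by -0.28 ± 0.25. With wild-type control replicate 2 left out, the value was -0.02 for Ctsl, 0.30 for Ctsb 1417492_at, and 0.07 and -0.01 for the bright Ctsb probe sets, and the count was still 1. In that setting 8.23% of all probe sets had an unadjusted p under 0.05.

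In POR-null, 9 of the 11 cathepsin probe sets were lower on quercetin and 2, Ctsh (0.12 ± 0.10) and Ctsz 1417869_s_at (0.02 ± 0.11), were higher. The median was -0.08, against 0.01 over all probe sets. Ctsl had the most negative value, -0.47 ± 0.25, with its highest quercetin array at 7.14 and its lowest control array at 7.20. Ctsb 1417491_at was the other probe set whose groups did not overlap, at -0.25 ± 0.12. None of the 11 had an unadjusted p under 0.05 (6.65% of all probe sets did), the smallest limma adjusted p was 0.753, 12.6% of all probe sets had groups that did not overlap, and 0% passed the adjusted threshold. As a fold the Ctsl value was 0.72, with a 95% interval of 0.50 to 1.05, and that of Ctsd 0.99 with an interval of 0.89 to 1.10. With POR-null quercetin replicate 1 left out, or replicate 2 of the POR-null controls, or replicate 1 or 2 of the wild-type controls (through the shared spread), 1 of the 11 had an unadjusted p under 0.05. Shares of all probe sets in these settings are not given, and the 6.65% belongs to the full fit.

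Levels of Lgmn and the cathepsins within groups were set side by side as deviations from the group means. Lgmn deviations had Pearson correlations of 0.88 with Ctsz 1417869_s_at, 0.71 with Ctsz 1417870_x_at and Ctsd, 0.55 and 0.56 with the bright Ctsb probe sets, 0.53 with Ctsl and Ctss, 0.52 and 0.26 with the dim Ctsb probe sets 1417492_at and 1417491_at, 0.44 with Ctsz 1417868_a_at, and 0.21 with Ctsh, over 12 arrays that share their hybridisations. With group differences left in, the correlation was 0.70 and 0.72 with the bright Ctsb probe sets, 0.66 with Ctss, 0.59 with Ctsd, 0.34 and 0.40 with the dim Ctsb probe sets, 0.05 with Ctsl and -0.17 with Ctsh. With Ctsz it was 0.18 (1417869_s_at), -0.03 (1417870_x_at) and -0.08 (1417868_a_at). These are descriptions of 12 arrays and carry no test.

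The inhibitors of these proteases were measured for 6 of 11 listed genes, 3 higher and 3 lower in POR-null on quercetin (median -0.01). Cst7, cystatin F of immune cells, was at 5.39 ± 0.14 in POR-null and 5.08 ± 0.14 in wild type (SD, n = 3 each), a difference of 0.31 ± 0.11 with groups that did not overlap (limma adjusted p = 0.62). Cst6, cystatin M/E and an inhibitor of legumain itself, differed by 0.10 ± 0.09. Within POR-null, however, Cst6 was at 8.26 ± 0.15 on quercetin and 8.63 ± 0.08 on the control diet, a difference of -0.37 ± 0.09 (limma adjusted p = 0.526). In wild type its quercetin difference was -0.03 ± 0.09. As a description, on the control diet Cst6 was 0.44 ± 0.09 higher in POR-null than in wild type (0.46 without wild-type control replicate 2). The Cst6 values of -0.37 and 0.44 share the POR-null control arrays. The inhibitor list had 5 higher and 1 lower there.

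Of the other cathepsins, 7 of 8 were measured, with 5 higher and 2 lower in POR-null on quercetin (median 0.07). Ctsf, a papain-family protease, had the smallest p, with 0.17 ± 0.08 (limma adjusted p = 0.721). In wild type the quercetin difference was -0.22 ± 0.08 for Ctsf and 0.18 ± 0.08 for Ctsa, the carboxypeptidase that protects neuraminidase. Both Ctsf differences share the wild-type quercetin arrays. Ctse, an aspartic protease, had an SE of 0.36 and a genotype difference of 0.01 on quercetin.

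Lysosomal hydrolases and their activators were measured for 28 of 34 genes, of which 16 were higher and 12 lower in POR-null on quercetin (median 0.02). Gaa, the acid alpha-glucosidase, stood at 7.18 ± 0.02 in POR-null and 7.40 ± 0.04 in wild type on quercetin, a difference of -0.22 ± 0.07 (limma adjusted p = 0.521), the smallest adjusted p of any listed lysosomal gene in that comparison. Wild-type mice had Gaa at 7.40 ± 0.04 on quercetin and 7.07 ± 0.05 on the control diet, 0.33 ± 0.07 higher on quercetin (limma adjusted p = 0.175). The Gaa values of -0.22 and 0.33 share the wild-type quercetin arrays. Psap, the precursor of the saposins, differed between genotypes by -0.28 ± 0.12, and Hexa, a beta-hexosaminidase subunit, by -0.15 ± 0.07. Neu1, the lysosomal sialidase, was at 9.65 ± 0.29 on quercetin and 10.04 ± 0.02 on the control diet in POR-null (-0.40 ± 0.14, limma adjusted p = 0.697). Its quercetin difference in wild type was 0.09 ± 0.14. As a description, on the control diet Neu1 was 0.40 ± 0.14 higher in POR-null than in wild type (0.37 without wild-type control replicate 2). The Neu1 values of -0.40 and 0.40 share the POR-null control arrays. The hydrolase list had 19 higher and 9 lower there.

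Of 15 measured genes of the lysosomal membrane (19 listed), 11 were lower and 3 higher in POR-null on quercetin (median -0.09), with Lamtor2, a scaffold for mTORC1, at -0.21 ± 0.09 (limma adjusted p = 0.671). Quercetin minus control in POR-null had 14 of these 15 lower (median -0.13), with 1 of 15 at an unadjusted p under 0.05 (6.65% of all probe sets were), the ion channel Mcoln1 (-0.21 ± 0.08). In wild type the same contrast had 8 higher and 7 lower, and the cholesterol transporter Npc1 was at 5.39 ± 0.14 on quercetin and 5.81 ± 0.21 on the control diet (-0.42 ± 0.13, limma adjusted p = 0.296). The V-ATPase that acidifies the lysosome had 14 of 15 subunits and partners measured, 7 higher and 7 lower in POR-null on quercetin. Its subunit Atp6v1f was at 8.30 ± 0.03 in POR-null and 8.51 ± 0.03 in wild type (-0.21 ± 0.07, limma adjusted p = 0.577), and was 0.25 ± 0.07 higher on quercetin in wild type. Both Atp6v1f differences share the wild-type quercetin arrays.

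Sorting of the enzymes to the lysosome was covered by 10 of 13 genes, 5 higher and 5 lower in POR-null on quercetin (median 0.01). Sort1, the sorting receptor sortilin, was at 8.92 ± 0.14 on quercetin and 9.28 ± 0.07 on the control diet in POR-null, a difference of -0.36 ± 0.08 (limma adjusted p = 0.415). Its quercetin difference in wild type was 0.14 ± 0.08. As a description, on the control diet Sort1 was 0.37 ± 0.08 higher in POR-null than in wild type (0.37 without wild-type control replicate 2). The Sort1 values of -0.36 and 0.37 share the POR-null control arrays. The sorting list had 6 higher and 4 lower there. Igf2r, the large mannose 6-phosphate receptor, was 0.23 ± 0.11 higher in POR-null on quercetin, and Gga2, a clathrin adaptor, differed by -0.21 ± 0.08. Tfeb itself was at nearly equal levels in the genotypes on quercetin (0.02 ± 0.07). Of the 7 measured regulators of lysosomal genes, 1 was higher and 5 lower, with a median of -0.04 and no unadjusted p under 0.05.

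The list of the invariant chain, which Ctss cleaves, with MHC class II chains and genes of their loading and regulation, was lower in POR-null on quercetin for all 9 measured genes, with a median of -0.44. H2-Eb1 was at 10.20 ± 0.34 in POR-null and 10.73 ± 0.18 in wild type (-0.53 ± 0.19), H2-DMa differed by -0.44 ± 0.20, H2-Ab1 by -0.53 ± 0.24 and the invariant chain Cd74 by -0.45 ± 0.20. None passed, the smallest adjusted p being 0.627 (limma), and 5 of 9 had an unadjusted p under 0.05, against 7.01% of all probe sets. The control diet had 6 higher and 3 lower (median 0.08), and 5 higher and 4 lower (median 0.00) without wild-type control replicate 2. B and plasma cell markers had the same direction on quercetin, with 4 of 5 lower in POR-null, a median of -0.72 and a mean marker score of -0.22 ± 0.19 in POR-null quercetin arrays against 0.33 ± 0.19 in wild-type quercetin arrays. Of these markers, 4 of 5 had an unadjusted p under 0.05 on quercetin, and none passed the adjusted threshold. Igj, the brightest (mean 9.30), was 0.14 ± 0.28 higher, while Cd79a and Cd79b, next in level, differed by -0.76 ± 0.12 and -0.81 ± 0.13. On the control diet all 5 were higher (median 0.20). The summed linear level ran from 996 to 1610 on the POR-null quercetin arrays and from 1186 to 1551 on the wild-type quercetin arrays. The part of these markers in the MHC class II values was not tested. Lgmn, which was higher in POR-null on quercetin, did not share the lower direction of the MHC class II list there.

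Over all 96 measured genes of these lysosomal lists, 12 had an unadjusted p under 0.05 between genotypes on quercetin (12.5%, against 7.01% of all probe sets) and none passed the adjusted threshold. Of those 12, 5 were in the invariant chain and MHC class II list, and the other 87 genes gave 7 (8.05%). For quercetin minus control the counts were 11 in wild type (11.5%, against 10.9%) and 6 in POR-null (6.25%, against 6.65%). Without wild-type control replicate 2 the count in wild type was 5 (5.21%, against 8.23% of all probe sets), and the quercetin difference there was 0.32 ± 0.08 for Gaa, -0.31 ± 0.13 for Npc1, 0.22 ± 0.08 for Atp6v1f, 0.24 ± 0.09 for Ctsa, -0.16 ± 0.09 for Ctsf and -0.01 ± 0.11 for Cst6. For the 15 lysosomal membrane genes that comparison then had 7 higher and 8 lower.

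**Figure D3:**
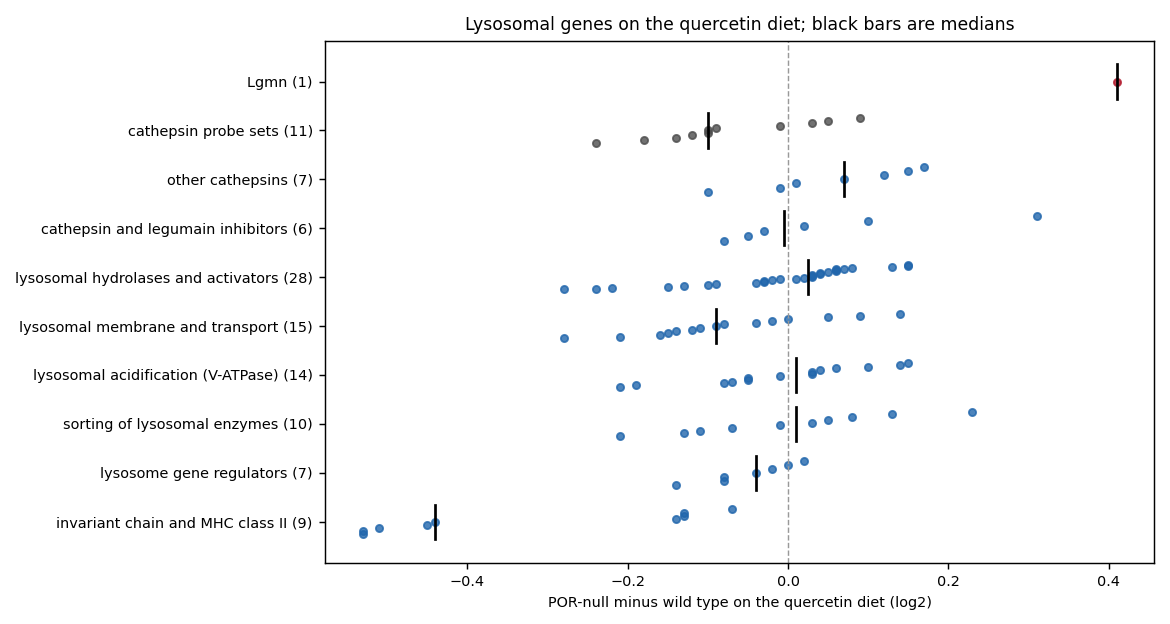
POR-null minus wild type on the quercetin diet, log2, for Lgmn, the 11 cathepsin probe sets and each list of lysosomal genes, with the number measured in brackets. Points are genes (probe sets for the first 2 rows) and black bars medians. Lgmn lies at 0.41, the cathepsins between -0.24 and 0.09, and the invariant chain and MHC class II genes all below 0.

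Macrophages are rich in legumain and cathepsins, so their markers are given beside Lgmn. All 15 listed genes were measured, and on quercetin 7 were higher and 7 lower in POR-null, with a median of 0.00. Adgre1, Cd68, C1qc, Fcgr1, Mrc1, Cd163 and Marco were below the array median on all 12 arrays. The brightest were Lyz2 (8.04 to 9.76), which Paneth cell lysozyme resembles in sequence, Csf1r (7.49 to 7.92) and Cd14 (6.43 to 6.89). The summed linear level of the list ran from 1461 to 1824 on POR-null quercetin arrays and 1227 to 1498 on POR-null control arrays, against 1278 to 1672 on wild-type quercetin arrays and 1156 to 1318 on wild-type control arrays, so the genotypes overlapped on both diets. Dendritic cell markers had 4 higher and 3 lower of 7 (median 0.02).

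Smooth muscle and stroma markers had the direction of Lgmn. All 13 were higher in POR-null on quercetin (median 0.41), where 2 of 13 had an unadjusted p under 0.05 (7.01% of all probe sets did) and none passed the adjusted threshold. On the control diet all 13 were higher as well, with a median of 0.54, or 0.61 without wild-type control replicate 2. Their mean score was 0.31 ± 0.23 on POR-null quercetin arrays and 0.29 ± 0.71 on POR-null control arrays, against -0.24 ± 0.50 on wild-type quercetin arrays and -0.35 ± 0.25 on wild-type control arrays. Their summed linear level ran from 2080 to 2867 on POR-null quercetin arrays and 1562 to 3594 on POR-null control arrays, against 1485 to 2411 on wild-type quercetin arrays and 1439 to 1835 on wild-type control arrays. The score was above 0 on 5 of 6 POR-null arrays and below 0 on 5 of 6 wild-type arrays. The exceptions were POR-null control replicate 2, with a score of -0.49 and Lgmn at 8.46, and wild-type quercetin replicate 2, with a score of 0.33 and Lgmn at 7.85, the highest of the wild-type arrays in both. The part of stroma in the Lgmn difference was not tested. Differences of the 13 markers on quercetin ran from 0.04 (Col3a1 and Vim) to 1.34 ± 0.63 (Myl9). The brightest, Mylk (9.44 to 10.33), Acta2 (7.20 to 9.36) and Des (6.56 to 7.41), were above the array median on all 12 arrays. They differed by 0.21 ± 0.16, 0.82 ± 0.43 and 0.41 ± 0.17 on quercetin. Col1a1 and Col3a1 were below the array median on all 12 arrays.

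Markers of other cell types also ran with or against the direction of Lgmn on quercetin, and their part in the Lgmn difference was not tested. Paneth cell markers were higher in POR-null for 4 of 4 genes (median 0.36, 2 with an unadjusted p under 0.05), with a score of 0.31 ± 0.23 on POR-null quercetin arrays and -0.06 ± 0.30 on wild-type quercetin arrays, and a summed linear level of 7137 to 10767 on POR-null quercetin arrays and 6019 to 9007 on wild-type quercetin arrays. Mast cell markers were higher for 5 of 6 (median 0.19, 1 with such a p), with summed levels of 336 to 417 on POR-null quercetin arrays and 315 to 366 on wild-type quercetin arrays. General enterocyte markers were higher for 8 of 10 (median 0.09), T cell markers for 5 of 6 (0.04) and goblet cell markers for 3 of 5 (0.04), none with an unadjusted p under 0.05. Ileal enterocyte markers ran against Lgmn, with 5 of 6 lower (median -0.22, 3 with an unadjusted p under 0.05, where 7.01% of all probe sets had one) and summed levels of 12886 to 14092 on POR-null quercetin arrays against 16445 to 17148 on wild-type quercetin arrays, which did not overlap. Their differences ran from -2.35 (Fgf15) to 0.77 (Slc10a2), with Amn at -0.00. On the control diet, all 6 mast cell markers (median -0.18) and all 5 goblet cell markers (-0.09) were lower in POR-null. Enterocyte markers were 3 higher and 7 lower there (-0.05), Paneth cell markers 2 and 2 (0.14) and T cell markers 3 and 3 (0.06). Ileal enterocyte markers had 4 higher and 2 lower (0.02). Without wild-type control replicate 2, all 4 Paneth cell markers were lower (-0.22).

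The genes whose levels ran most like Lgmn over the 12 arrays were sought among 7209 genes at or above the median level. Because Lgmn splits the arrays by genotype, correlations over all arrays partly restate that split, and those within genotypes (6 arrays each) are given with them. Dusp12, a dual-specificity phosphatase, had r = 0.949 over all arrays, 0.95 in POR-null and 0.50 in wild type. Next came Slc5a8, a transporter of monocarboxylates (0.878 over all arrays, 0.48 in POR-null and 0.79 in wild type), and Lamb3, a laminin chain of the basement membrane (0.876, 0.50 and 0.42). Nbr1, an autophagy receptor, had 0.867, 0.66 and 0.71, and Glul, glutamine synthetase, 0.863, 0.53 and 0.50. No lysosomal protease was among these 5.

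Levels of these genes are a description, since they were chosen for this pattern. On quercetin Lamb3 was at 9.64 ± 0.16 in POR-null and 9.08 ± 0.20 in wild type, and Glul at 7.35 ± 0.14 in POR-null and 6.99 ± 0.29 in wild type. Dusp12 followed Lgmn with a much smaller span, at 6.48 ± 0.03 in POR-null and 6.32 ± 0.03 in wild type on quercetin. The most opposed genes were Wwox (r = -0.838), an oxidoreductase, the transcription factor Mycn (-0.802), the lipid phosphatase Plpp3 (-0.795), the mitochondrial acyl-CoA dehydrogenase Acadl (-0.791) and the annexin Anxa4 (-0.788). Within POR-null and within wild type the correlation was -0.81 and -0.37 for Wwox, -0.62 and -0.93 for Mycn, 0.11 and -0.77 for Plpp3, -0.39 and -0.17 for Acadl, and -0.19 and -0.16 for Anxa4. Within groups, as deviations from group means, the correlation was 0.896 for Dusp12 and 0.368 for Glul, and -0.667 for Mycn and -0.036 for Anxa4. Leaving out the 2 arrays farthest from the median of Lgmn gave 0.91 for Dusp12 and -0.75 for Wwox.

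**Figure D4:**
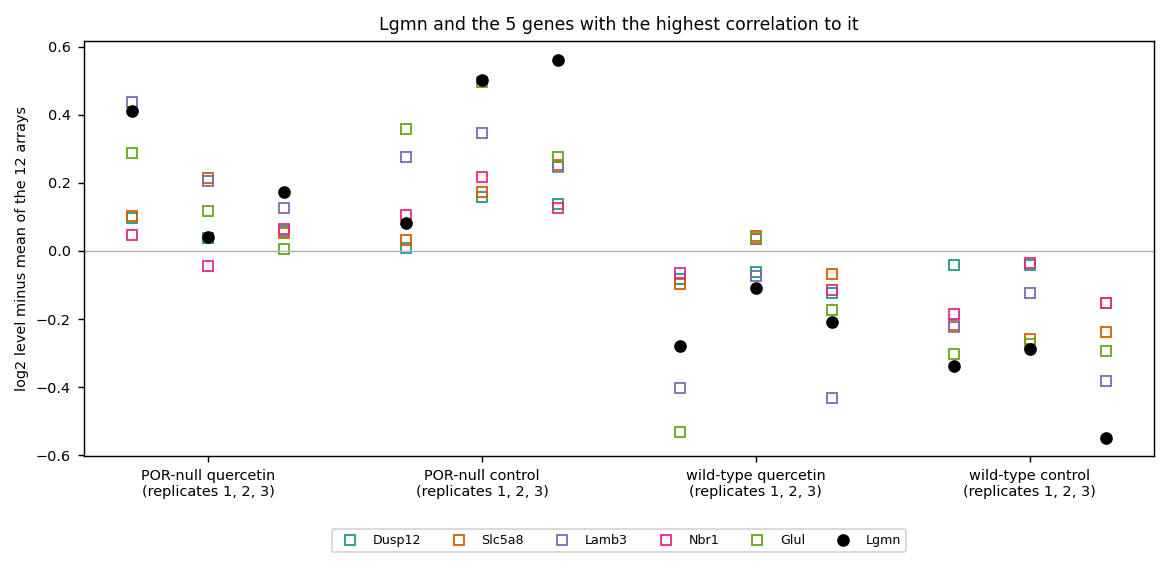
Levels of Lgmn (black) and the 5 genes with the highest correlation to it, as log2 level minus the mean of the 12 arrays, by array and group. Lgmn, Dusp12 and Lamb3 are above their means on all 6 POR-null arrays and below on all 6 wild-type arrays.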

How the data were processed

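Levels were measured on 12 Affymetrix 430A arrays, 3 for each of 4 groups of genotype and diet. Each probe set had 1 log2 expression value per array, as the authors deposited it. MAS5 and RMA are named in the submitters' processing notes without saying what each was used for. Values ran from 2.66 to 14.04 with array medians of 5.91 to 5.96, and were used as deposited. The 64 array controls among 22690 probe sets were not tested. Of the 22626 tested, 20380 had 1 symbol in the platform annotation, 691 several and 1555 none. By gene ID, 20351 of the first were matched to RefSeq names and 29 were not.

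Group means were fitted to the 12 arrays with limma (version 3.58.1, R version 4.3.3), using lmFit with moderated variances from eBayes. The fit had 8 residual degrees of freedom, 5.59 came from the prior, and the median residual SD was 0.109. It was checked on simulated data. The Benjamini-Hochberg adjustment ran over all 22626 probe sets, with a threshold of 0.05. Errors after ± are SDs for means and SEs for differences, and the number of arrays limits the precision. Marker scores are means of log2 levels centred on the 12 arrays, and summed levels are sums of 2 to the power of the log2 level.

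The genes and lists were chosen with earlier results of these data known. Other genes were represented by their brightest probe set with 1 symbol. From each lysosomal list up to 4 genes with the smallest p for genotype on quercetin and up to 2 for each quercetin effect could be named, from marker lists the counts, summed level and up to 3 of the brightest genes, and the 5 genes with the highest and the 5 with the lowest correlation to Lgmn. Genes named as below the array median, and Vil1, Cst6, Tfeb, Ctse, Vim, Myl9, Fgf15, Slc10a2 and Amn as examples of their lists, were picked after their values were seen. So were the control-diet differences of Cst6, Neu1 and Sort1, and the setting without wild-type control replicate 2 for the lists.

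Replicate numbers were checked for pairing. Alternatives were quantile normalization, median centring, filters on dim probe sets, limma's trend and robust options, weights per array, a replicate block, fits to only the 2 groups compared, the mean of a gene's probe sets, and leaving out each array. Promoter sequences are from RefSeq on GRCm38.p6, which had no entry here for Ctsb or Ctsh.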

Additional observations from a re-analysis of the deposited data

How the results depend on the processing

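The Lgmn difference between genotypes on quercetin stayed between 0.38 and 0.42 under 9 settings (adjusted p of 0.372 to 0.573), and between 0.30 and 0.49 when each of the 12 arrays was left out (0.415 to 0.984); it passed under none. With the replicate block it was 0.41 (adjusted p = 0.534). Deviations of same-numbered arrays of different groups had r of -0.179 to 0.162 (median 0.016), with 3 of 18 above 0.1. Those of different-numbered arrays had r of -0.219 to 0.169 (median 0.001), with 4 of 36 above 0.1. As these ranges were alike and 5 of 12 arrays correlated best with their own number, the numbers were not taken as pairs. On the control diet the Lgmn difference ranged from 0.68 to 0.92, the highest without POR-null control replicate 1. The count of cathepsin probe sets with an unadjusted p under 0.05 for quercetin in wild type (1 as reported) was 0 with probe sets at or above the median and with gene means, and 0 to 2 with arrays left out. In POR-null (0 as reported) it was 1 with quantile normalization, centring or the replicate block, 2 with only the 2 groups compared, and 0 to 1 with arrays left out. Shares of all probe sets with such a p under these settings are not given beside these counts. Control-diet groups did not overlap for 3 to 6 probe sets of Lgmn and the cathepsins when arrays were left out. Smaller groups overlap less readily, and the share of all probe sets was not counted there. Over all probe sets, those past the adjusted threshold between genotypes on quercetin (0 as reported) numbered 5 with the trend and robust options, 2 with the replicate block, 2 with only the 2 groups compared, and 0 to 1 with arrays left out. For quercetin in wild type (1 as reported) they numbered 7 with probe sets at or above the lower quartile, 7 with trend and robust options, 5 with the replicate block, 2 with only the 2 groups compared, and 1 to 59 with arrays left out, 59 without wild-type control replicate 1. The causes were not tested. The sign changed under at least 1 alternative for 17 of 47 pairs of probe set and comparison, none with a reported difference over 0.24 in size.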

Other observations

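Ctsl was not higher or lower by group so much as by array, which was noticed after its values were seen. Its highest levels were on POR-null control replicate 3 (7.95), wild-type quercetin replicate 2 (7.75) and wild-type control replicate 2 (8.06), 3 arrays of different groups. Among 7209 genes, those with the highest correlation to Ctsl over the 12 arrays were Avl9, a gene of late secretory transport (r = 0.914), Nbl1, a BMP antagonist (0.884), the secreted factor Fam3c (0.882), the endocytic receptor Lrp1 (0.861) and Gclm, a subunit of the enzyme that makes the glutathione precursor (0.856). The lowest were Hcrt (-0.874) and Agr2, a disulfide isomerase of goblet cells (-0.872). As deviations from the group means the correlation was 0.938 for Nbl1, 0.900 for Avl9 and -0.857 for Agr2. Without the 2 arrays farthest from the median of Ctsl it was 0.83 for Avl9 and 0.68 for Gclm. These correlations are descriptions of 12 arrays and carry no test.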
